A study of Mus musculus with 24 samples.

Results

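The genes described here are the ligands and receptors of the tumour necrosis factor (TNF) superfamily whose mouse symbols begin with Tnfsf or Tnfrsf followed by a number. They were taken from the gene symbols of the deposited tables where the log2 value was above -5 in at least 3 of the 24 libraries, and all 31 matching symbols of the 23420 genes passed, 11 ligands and 20 receptors. Of these 31 genes, 22 had a log2 value of 0 or more (1 CPM, a read count scaled to the size of the library) in at least 3 libraries and were tested; the other 9 are given by their values.

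RNA of spleen B cells from BALB/c mice was sequenced in 24 libraries, 3 in each of 8 groups. The groups were naive B cells, cells activated in vitro for 4 h, for 12 h or for 24 h, B cells activated in vivo, and germinal center (GC) B cells called early, peak and late. Cells had been enriched with beads, stained with surface antibodies and sorted. The labels name no stimulus, immunogen, time after immunization, animal, culture or sex, so the replicates may be technical and the p-values cover no more than the spread among these libraries. In bulk RNA fewer cells of a type and less RNA per cell cannot be told apart.

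TNF superfamily ligands are mostly membrane-bound trimers that cluster their receptors on a neighbouring cell, and many are also shed as soluble cytokines. The receptors signal through TRAF adaptors to NF-kB or, where they carry a death domain, to caspases. In B cells the best known branch is that of BAFF and APRIL, which keep mature B cells and plasma cells alive, while several of the other ligands pass costimulatory signals between B cells and T cells.

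All 6 B-cell markers were high in every library, with summed CPM between 2530 and 6860. The 6 GC markers summed to 1310 to 1740 CPM in the GC libraries and to 31.7 to 137 CPM in the others, so the labels held on both counts. Transcripts of 4 Y-linked genes summed to 80.3 to 130 CPM in naive and in vitro activated cells and to 0.0549 to 0.0966 CPM in every in vivo activated and GC library. This difference and the group therefore cannot be told apart in any comparison of in vivo activated or GC cells with naive or in vitro cells; it is absent from the comparisons within either set. Summed macrophage and monocyte markers (10 of the 11 listed genes measured) reached 510 to 2140 CPM in late GC, 121 to 278 in peak GC, 181 to 320 in early GC, 45.5 to 52.7 in naive, 33.6 to 43 in in vivo activated and 7.59 to 15.6 in in vitro libraries. Late GC replicate 1 stood apart with the 2140 CPM, and its neutrophil markers (5 of 6 measured) summed to 1070 CPM against 220 and 78.8 CPM in the other late GC libraries.

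The promoters of the BAFF and APRIL receptors and of the ligands Tnfsf14 and Tnfsf11, which had large differences between groups, are shown because many TNF superfamily genes are known targets of NF-kB. Each run is the 250 bases before the annotated start, 5′ to 3′ in the direction of the gene, from RefSeq on GRCm38.p6. Capitals mark matches to GGG, any 5 bases and CC, a loose form of the NF-kB site, on either strand.
Tnfrsf13c (BAFF receptor; chr15:82224381-82224630, minus strand): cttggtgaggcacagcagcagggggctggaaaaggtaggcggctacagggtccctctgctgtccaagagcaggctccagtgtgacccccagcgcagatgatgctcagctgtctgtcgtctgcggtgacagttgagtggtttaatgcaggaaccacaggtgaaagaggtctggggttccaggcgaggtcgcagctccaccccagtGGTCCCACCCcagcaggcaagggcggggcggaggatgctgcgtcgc
Tnfrsf13b (TACI; chr11:61126505-61126754, plus strand): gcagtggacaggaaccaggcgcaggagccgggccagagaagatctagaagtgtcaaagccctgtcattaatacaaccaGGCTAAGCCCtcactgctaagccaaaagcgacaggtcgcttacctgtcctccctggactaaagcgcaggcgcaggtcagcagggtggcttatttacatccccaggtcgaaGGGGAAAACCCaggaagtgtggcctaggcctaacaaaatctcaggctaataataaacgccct
Tnfrsf17 (BCMA; chr16:11313559-11313808, plus strand): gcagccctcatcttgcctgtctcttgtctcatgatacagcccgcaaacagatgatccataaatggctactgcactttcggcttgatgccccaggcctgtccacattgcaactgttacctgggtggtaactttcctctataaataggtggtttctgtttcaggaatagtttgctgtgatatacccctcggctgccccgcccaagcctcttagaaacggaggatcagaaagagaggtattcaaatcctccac
Tnfsf14 (LIGHT; chr17:57194182-57194431, minus strand): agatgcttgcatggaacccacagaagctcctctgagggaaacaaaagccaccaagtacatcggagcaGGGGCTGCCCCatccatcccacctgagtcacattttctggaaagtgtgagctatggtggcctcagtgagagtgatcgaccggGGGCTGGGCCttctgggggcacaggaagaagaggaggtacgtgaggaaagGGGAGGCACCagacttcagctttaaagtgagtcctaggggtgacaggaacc
Tnfsf11 (RANKL; chr14:78308044-78308293, minus strand): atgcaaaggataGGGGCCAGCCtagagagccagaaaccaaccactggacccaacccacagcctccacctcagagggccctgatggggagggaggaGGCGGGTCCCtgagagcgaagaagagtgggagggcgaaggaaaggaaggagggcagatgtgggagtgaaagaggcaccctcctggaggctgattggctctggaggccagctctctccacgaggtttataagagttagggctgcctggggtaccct
On the 300-base windows that also hold 50 bases after the start, counting each start position and strand and letting matches overlap, Tnfrsf13c had 1 match, Tnfrsf13b 4, Tnfsf14 6, Tnfsf11 2 and Tnfrsf17 had 0. A match was held by 15 of the 28 promoters found for 24 of the 31 members, or 53.6%, and by 50.8% of all 32851 promoters in the table.

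Among the BAFF and APRIL receptors, the BAFF receptor gene Tnfrsf13c was the most abundant member per kilobase of exon in each of the 8 groups, at group means of 7.09 to 8.34 log2 CPM per kilobase. Its deposited log2 values were 8.46, 8.4 and 8.38 in naive cells. They were 9.39, 9.36 and 9.36 at 4 h, 9.04, 8.99 and 8.95 at 12 h and 8.63, 8.68 and 8.65 at 24 h in vitro. The 4 h libraries were above all naive libraries, and the level then came down at each later time without reaching naive levels. The rise at 4 h was 0.96 ± 0.05 (SE; log2, adjusted p = 4.14e-14), and the difference left at 24 h was 0.24 ± 0.05 (adjusted p = 0.000159). In vivo activated cells had 8.71, 8.64 and 8.65, close to 24 h in vitro, with a difference of 0.02 ± 0.05 that was not called (adjusted p = 0.808). GC libraries had 8.32, 8.18 and 8.37 at the early stage, 8.36, 8.46 and 8.44 at the peak and 8.01, 8.22 and 8.14 late. Peak GC and naive libraries overlapped, with a log2 difference of 0.01 ± 0.05 (adjusted p = 0.91). Late GC was below peak GC by 0.3 on the log2 scale (SE 0.05, adjusted p = 0.00017) with no overlap. The gene had the smallest span of group means among the 22 tested members, at 1.25 log2.

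Tnfrsf13b encodes TACI, which binds both BAFF and APRIL. It moved against the BAFF receptor at 4 h: 5.7, 5.49 and 5.55 in naive cells against 3.95, 4.15 and 4.14 at 4 h, a fall by 1.5 on the log2 scale (SE 0.08, adjusted p = 2.67e-14). By 12 h it was back at 5.68, 5.63 and 5.8, a rise of 1.62 ± 0.08 over 4 h (adjusted p = 5.58e-14), and at 24 h it was 5.75, 5.79 and 5.71. The 24 h level was not called against naive (0.17 ± 0.08, adjusted p = 0.0515), although the libraries did not overlap, and it was called without naive replicate 1 (0.23, adjusted p = 0.0179). TACI transcripts were highest after activation in vivo, at 6.32, 6.29 and 6.24, which was 0.7 ± 0.08 above naive (adjusted p = 2.43e-08) and 0.53 ± 0.08 above 24 h in vitro (adjusted p = 2.64e-06). Every GC library was below every naive library: 4.5, 4.66 and 4.59 in early, 4.76, 4.48 and 4.5 in peak and 4.23, 4.41 and 4.35 in late GC. Peak GC was below in vivo activated cells by 1.7 on the log2 scale (SE 0.08, adjusted p = 5.69e-15) and below naive cells by 1.0 (SE 0.08, adjusted p = 4.57e-11).

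Tnfrsf17 encodes BCMA, the high-affinity APRIL receptor of plasma cells. It lay under the level needed for testing. Naive libraries had -1.12, -1.17 and -1.85 and in vivo activated libraries -1.66, -1.07 and -0.03. The other groups were lower, at -3.19, -3.48 and -4.11 at 4 h, -4.18, -6.23 and -4.29 at 12 h and -2.78, -2.59 and -4.08 at 24 h in vitro. In GC cells it was -3.94, -3.41 and -4.11 (early), -4.07, -3.09 and -4.03 (peak) and -4.02, -3.9 and -2.44 (late). No naive or in vivo activated library of Tnfrsf17 overlapped any library of the other 6 groups. In a fit over 17525 genes without the level requirement, peak GC was lower than naive by 2.35 (log2, SE 0.6, adjusted p = 0.00161) and lower than in vivo activated by 2.81 (SE 0.6, adjusted p = 0.000365). Of 7 plasma cell markers, a list without Tnfrsf17, 6 were measured, and they summed to 1630 to 1820 CPM in naive, 1510 to 1690 in in vivo activated and 913 to 1320 in peak GC libraries. The sum was highest at 4 h in vitro (2080 to 2160 CPM), but its 6 genes did not share a course. By group mean (log2), Irf4 was highest at 4 h (10.87) and Prdm1 and Sdc1 in naive cells (4.71 and 4.09). Xbp1 was highest after in vivo activation (7.46), and Mzb1 and Ell2 in late GC (9.08 and 7.62). The part of plasma cell RNA in the Tnfrsf17 difference was not tested.

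The ligands of these receptors were near the lower end of the scale. BAFF (Tnfsf13b) ranged from -4.22 to -1.14 over all 24 libraries, with group means from -3.99 in naive to -1.96 in late GC, where the libraries had -1.76, -1.7 and -2.41. At 4 h in vitro its 3 libraries spread over -1.14, -4.04 and -1.93, and the naive libraries had -3.98, -3.79 and -4.21. In the remaining groups BAFF had -3.37, -2.91 and -2.38 at 12 h, -3.24, -3.36 and -2.64 at 24 h, -3.98, -2.84 and -4.22 after in vivo activation, -3.88, -3.36 and -2.73 in early GC and -2.7, -2.08 and -3.55 in peak GC. These ranges overlapped between most groups, but the late GC libraries lay above all naive ones. In the fit without the level requirement, 4 h was above naive by 1.62 (log2, SE 0.6, adjusted p = 0.0238), although the libraries of these groups overlapped. That was the only call for BAFF among the 11 comparisons in that fit, which did not include late GC against naive. APRIL (Tnfsf13) was under -5 log2 in several libraries of the naive and activated groups, with -4.9, -5.48 and -6.15 in naive cells, -5.92, -5.32 and -6.15 at 4 h, -5.92, -4.39 and -4.25 at 12 h, -3.84, -4.39 and -4.04 at 24 h and -5.92, -2.82 and -6.15 after in vivo activation. In GC libraries it was -1.33, -3.11 and -3.2 at the early stage, -4.77, -5.32 and -1.95 at the peak and -0.92, -2.7 and -1.64 late. The late GC libraries, where both ligands had their highest group mean, were also those with the most macrophage and monocyte marker RNA (510 to 2140 CPM), and its part in these values was not tested.

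**Figure D1:**
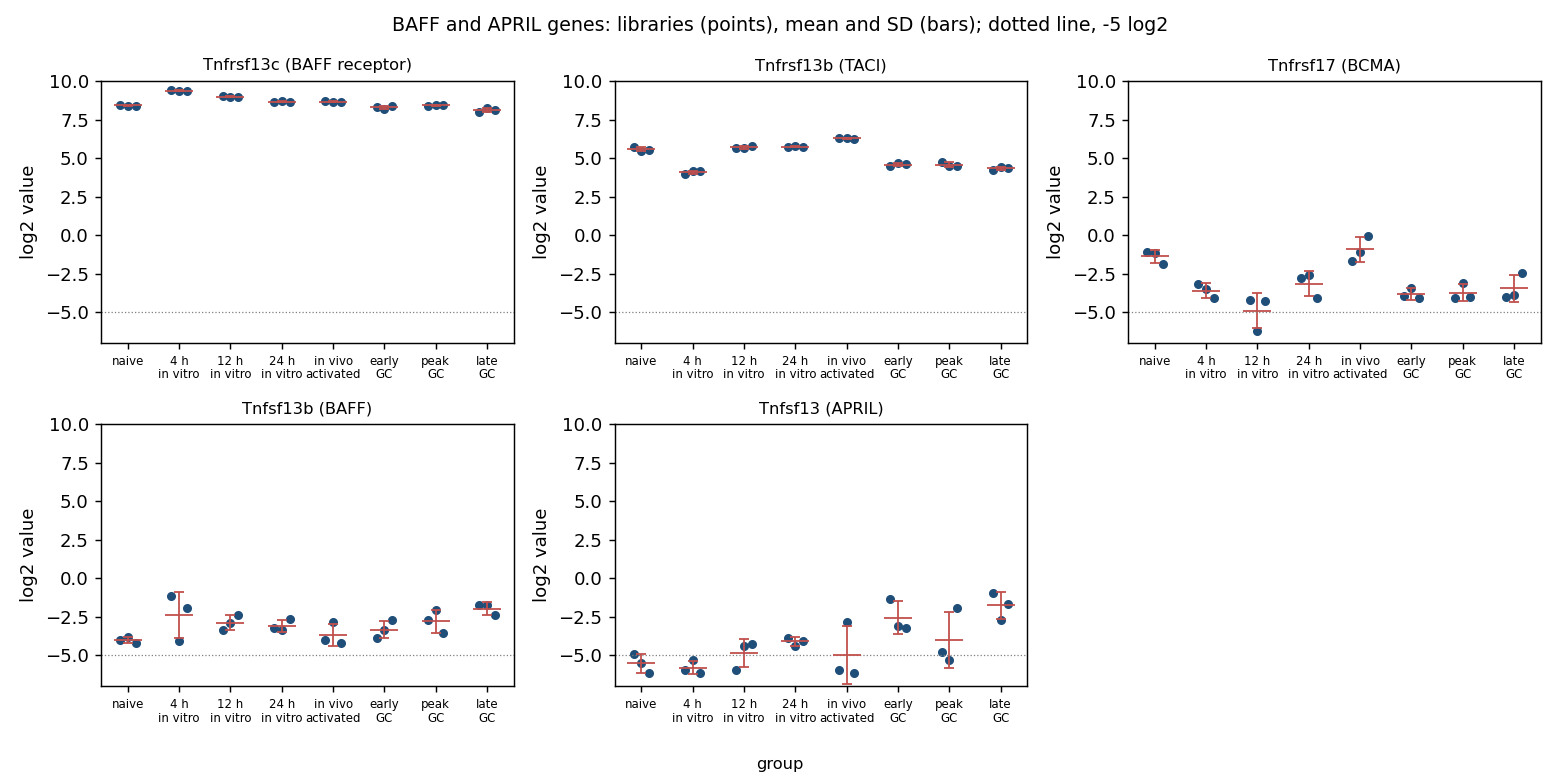
Deposited log2 values (vertical axis, scale like CPM) of the BAFF and APRIL receptors and ligands by group (horizontal axis). Points are libraries, bars the mean and SD of 3, and the dotted line is -5 log2. Tnfrsf13c stays between 8.01 and 9.39 in all libraries, Tnfrsf13b has its lowest group at 4 h and its highest after in vivo activation, and Tnfrsf17 is highest in naive and in vivo activated cells.

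Across the 8 groups, all 22 tested members differed in the limma F test (adjusted p from 9.66e-21 to 1.21e-06), as did 99.7% of the 11885 genes tested, so that count alone does not set the family apart. The median span between the highest and lowest group mean was 3.93 log2 for the 22 members and 1.66 log2 for all genes tested. The 2 sets were not matched for level, which also limits the median sizes given below. Tnfrsf13c was at 0 log2 or more in all 24 libraries, but Tnfrsf23 only in 4 and Tnfsf11 in 6. Some spans reach down to low values, such as -4.46 for Tnfsf4 in peak GC. The highest levels were spread unevenly over the groups: 7 of the 22 members had their highest group mean at 24 h in vitro (14.9% of all genes), 5 at 4 h (16.3%), 3 in naive cells (22.3%), 2 after in vivo activation (9.34%), 2 in peak GC (8.55%), and 1 each at 12 h (13.4%), in early GC (6.07%) and in late GC (9.21%). The lowest group mean fell in peak or late GC for 10 members, 5 in each (7.98% and 16.8% of all genes), and at 24 h in vitro for another 5 (17.6%).

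**Figure D2:**
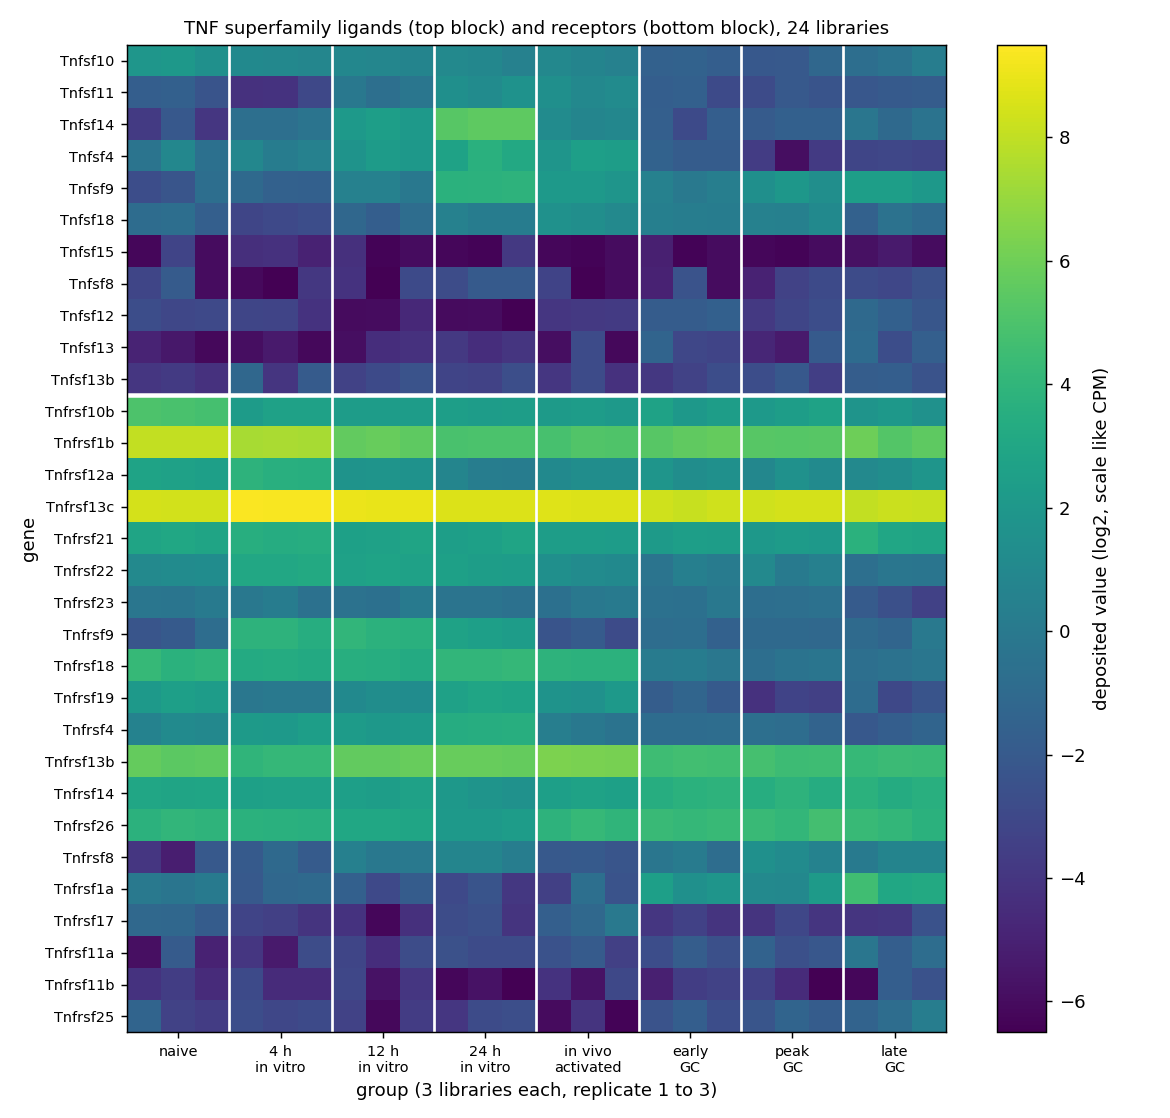
Deposited log2 values (colour, scale like CPM) of the 31 members in 24 libraries; rows are genes with ligands above the thick white line and receptors below it, and columns are libraries grouped by condition, replicates 1 to 3 from left to right. The brightest row is Tnfrsf13c, and Tnfsf14 has 1 bright block at 24 h in vitro (5.36, 5.54 and 5.51).

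In vitro, the ligand gene Tnfsf14 rose at each time, Tnfsf9, Tnfsf4, Tnfsf11 and Tnfsf18 were above naive cells by 24 h, and the receptor gene Tnfrsf9 rose most by 4 h. At 4 h, 8 of the 22 members rose and 9 fell against naive cells (all genes tested: 38.9% higher, 39.1% lower); the median size of the difference was 1.16 log2 against 0.68 over all genes. From 4 h to 12 h, 8 rose and 5 fell (34.6% and 27.2% of all genes), and from 12 h to 24 h, 8 rose and 6 fell (22.5% and 34.8%). At 24 h against naive cells, 10 had risen and 7 had fallen (42.2% and 42.5%), 15 of the 17 by at least 2-fold, with a median size of 1.95 log2 against 0.93 over all genes. The 4 h, 24 h, in vivo activated and peak GC comparisons with naive cells share the 3 naive libraries.

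Tnfsf14 encodes LIGHT, a ligand of HVEM and of the lymphotoxin beta receptor, and had the largest span of the 22 tested members at 8.76 log2. Its libraries had -3.78, -2.1 and -4 in naive cells against -0.65, -0.64 and -0.33 at 4 h. They had 2.13, 2.47 and 2.15 at 12 h and 5.36, 5.54 and 5.51 at 24 h. Each time point lay wholly above the one before it. The step from 4 h to 12 h was 2.79 ± 0.38 (adjusted p = 1.03e-06) and that from 12 h to 24 h was 3.22 ± 0.38 (adjusted p = 1.8e-07), which made 8.76 ± 0.38 over naive at 24 h (log2, adjusted p = 3.11e-16). Per kilobase of exon, Tnfsf14 was the second most abundant member at 24 h, after Tnfrsf13c.

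Tnfsf9, the 4-1BB ligand, is a neighbour of Tnfsf14 on chromosome 17 and rose later. Its libraries had -2.71, -2.28 and -0.7 in naive cells, -1.04, -1.54 and -1.62 at 4 h, 0.52, 0.56 and -0.09 at 12 h and 3.72, 3.76 and 3.82 at 24 h. The naive and 4 h libraries overlapped, and the largest step was that from 12 h to 24 h, 3.44 ± 0.34 (log2, adjusted p = 1.27e-08). Against naive cells the 24 h level was 5.66 ± 0.34 higher (adjusted p = 2.1e-13). In the mm10 annotation (GENCODE vM21), Tnfsf9 (chr17:57105325-57107757) and Tnfsf14 (chr17:57189492-57194177) flank Cd70 (chr17:57145997-57149777), the ligand of the costimulatory receptor CD27, with gaps of 38.2 and 39.7 kb. Cd70 was listed at -6.45, -5.96 and -6.13 in naive cells, under the -5 log2 taken here as the floor, and at 1.14, 1.65 and 1.96 at 24 h, so all 3 genes of the cluster had their highest group mean at 24 h in vitro.

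Tnfsf4, the OX40 ligand, had -0.33, 0.89 and -0.62 in naive cells, 0.92, 0.22 and 0.54 at 4 h, 1.74, 2.26 and 2.02 at 12 h and 2.7, 3.63 and 3.17 at 24 h. It rose by 1.44 ± 0.45 from 4 h to 12 h (log2, adjusted p = 0.00776). Tnfsf11 encodes RANKL, known for osteoclast formation and lymph node development. It first went down, from -1.73, -1.58 and -2.35 in naive cells to -4.19, -4.16 and -3.03 at 4 h. It then came up to -0.11, -0.64 and -0.19 at 12 h and 1.46, 1.19 and 1.63 at 24 h, 3.31 ± 0.38 above naive (log2, adjusted p = 3.03e-08). Tnfsf18, the GITR ligand and a neighbour of Tnfsf4 on chromosome 1, also dipped at 4 h. The values were -0.82, -0.75 and -1.66 in naive, -3.14, -2.94 and -2.74 at 4 h, -1.13, -1.74 and -0.79 at 12 h and 0.55, 0.22 and 0.24 at 24 h. Tnfsf10, the death ligand TRAIL, was the tested ligand that fell at 24 h: naive libraries had 1.91, 2 and 1.51, and the 9 in vitro libraries lay between 0.56 and 1.11.

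Among the receptors, 4-1BB and OX40 rose early. Tnfrsf9 (4-1BB) had -2.28, -1.97 and -0.81 in naive cells against 3.86, 3.85 and 3.48 at 4 h, a rise of 5.41 ± 0.34 (log2, adjusted p = 7.2e-13). It held at 4, 3.78 and 3.67 at 12 h and was lower again at 24 h, with 2.73, 2.5 and 2.33 (a fall by 1.3, SE 0.34, adjusted p = 0.00242). The receptor thus stood at its highest before its ligand Tnfsf9, which was highest at 24 h. Tnfrsf4 (OX40) had 0.6, 1.17 and 0.94 in naive cells, 2.23, 2.07 and 2.48 at 4 h, 2.25, 2.02 and 2.2 at 12 h and 3.38, 3.46 and 3.52 at 24 h. Its rise at 4 h was 1.35 ± 0.23 (log2, adjusted p = 1.54e-05). Tnfrsf14 (HVEM), the receptor of LIGHT, is given as the partner of Tnfsf14 and was chosen after its values were seen. It had 2.97, 2.83 and 2.88 in naive cells against 2.03, 1.79 and 1.62 at 24 h, a fall by 1.08 on the log2 scale (SE 0.13, adjusted p = 5.4e-08), while its ligand rose.

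**Figure D3:**
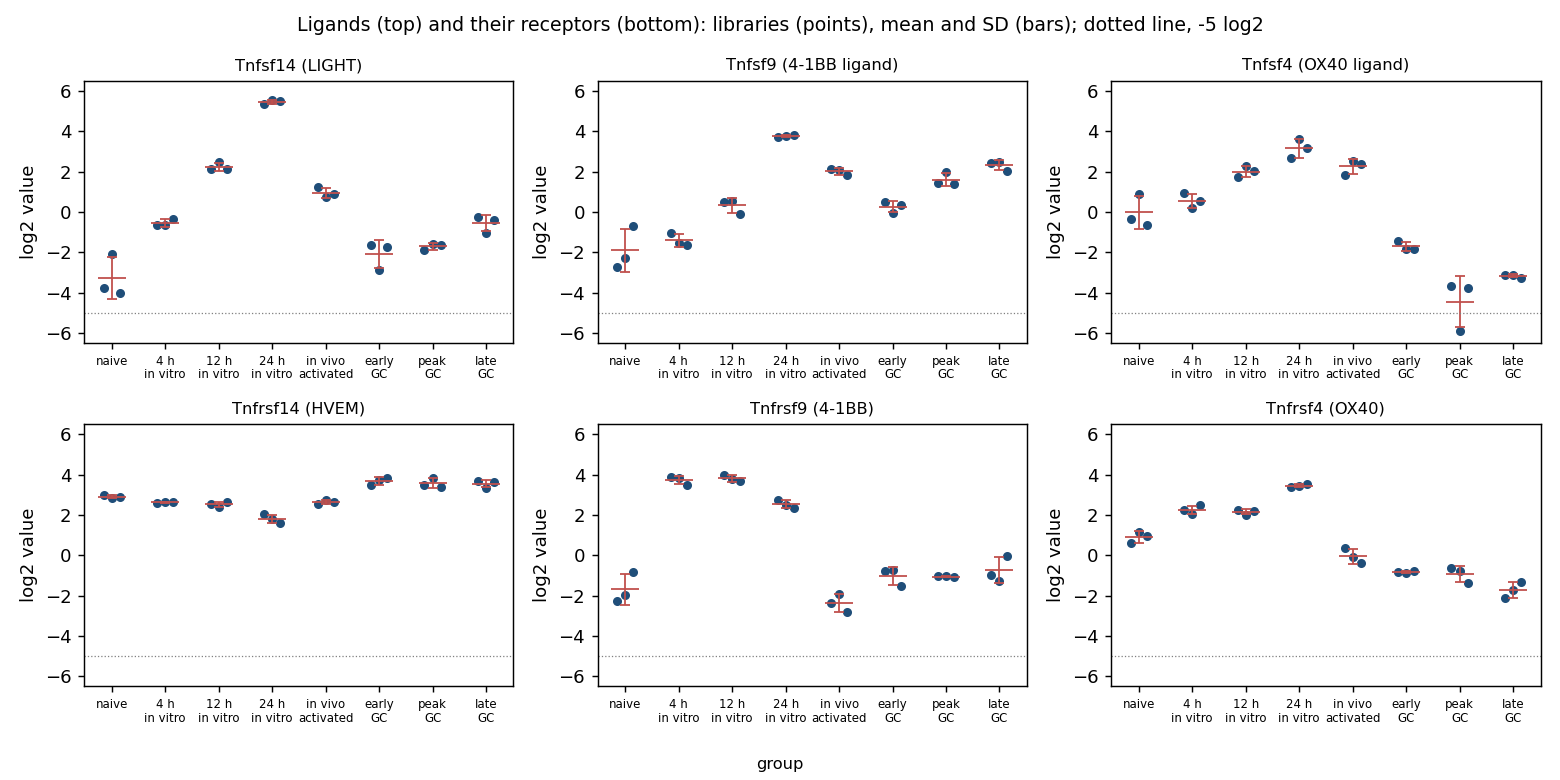
Deposited log2 values (vertical axes, scale like CPM) of 3 ligands (top) and their receptors (bottom) by group; points are libraries and bars the mean and SD of 3, and the dotted line is -5 log2. Tnfsf14 climbs to 5.47 on average at 24 h while Tnfrsf14 is lowest there (1.81), Tnfrsf9 is high at 4 h and 12 h, and Tnfsf4 is lowest in peak GC.

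The receptor genes Tnfrsf1b, Tnfrsf10b, Tnfrsf12a and Tnfrsf26 were below naive cells by 24 h. Tnfrsf1b, TNF receptor 2, was second only to Tnfrsf13c per kilobase in naive cells, and its libraries had 8.05, 8.04 and 8.01. It was 7.41, 7.44 and 7.4 at 4 h, 5.67, 5.8 and 5.55 at 12 h and 4.88, 4.97 and 4.94 at 24 h, each time wholly below the one before. The fall at 24 h was 3.11 on the log2 scale (SE 0.12, adjusted p = 3.62e-16). Tnfrsf10b, the mouse TRAIL death receptor, fell at once: 5.01, 4.88 and 4.79 in naive cells against 2.28, 2.68 and 2.67 at 4 h, a fall by 2.35 (log2, SE 0.16, adjusted p = 4.5e-12). It stayed between 2.32 and 2.46 at 12 h and 24 h. Tnfrsf12a, the TWEAK receptor Fn14, first rose, from 2.79, 2.65 and 2.53 to 3.84, 3.58 and 3.54 at 4 h, and then fell to 1.73, 1.78 and 1.68 at 12 h and 0.75, 0.3 and 0.24 at 24 h. That put it below naive cells by 2.22 on the log2 scale at 24 h (SE 0.2, adjusted p = 3.28e-10).

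Tnfrsf19 (TROY), an orphan receptor that signals to JNK, dipped and returned: 2.13, 2.51 and 2.36 in naive cells, -0.13, -0.05 and -0.02 at 4 h, 1.12, 1.37 and 1.29 at 12 h and 2.67, 2.89 and 2.76 at 24 h. The dip was a fall by 2.4 on the log2 scale (SE 0.36, adjusted p = 2e-06), with no overlap between the libraries. Tnfrsf26, Tnfrsf22 and Tnfrsf23 form a cluster on chromosome 7 with gaps of 6.1 and 16.1 kb. Tnfrsf22 and Tnfrsf23 encode decoy receptors for TRAIL, and since the 3 genes are close relatives, reads shared between them could be split by the counting. Tnfrsf22 rose from 1.06, 1.22 and 1.28 to 3.11, 3.09 and 3.2 at 4 h (1.95 ± 0.21 log2, adjusted p = 9.91e-09), and was 2.68, 2.78 and 2.68 at 12 h and 2.62, 2.43 and 2.36 at 24 h. Tnfrsf26 went the other way, from 3.76, 4.03 and 3.88 to 3.74, 3.63 and 3.57 at 4 h, 3.03, 3.05 and 2.88 at 12 h and 2.11, 2.17 and 2.37 at 24 h (lower than naive by 1.68 log2, SE 0.14, adjusted p = 1.07e-10). Tnfrsf23 ranged from -0.6 to 0.22 over the naive and in vitro libraries and was called in none of the 4 in vitro comparisons. These neighbours therefore did not share a course.

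In cells activated in vivo, 5 of the 6 tested ligand genes rose, and the receptor genes Tnfrsf1b, Tnfrsf10b and Tnfrsf12a were among those that fell. Against naive cells, 8 of the 22 members rose and 7 fell (39.2% and 40.1% of all genes tested), with a median size of 1.0 log2 against 0.7 over all genes. The 5 ligand genes that rose were Tnfsf14, Tnfsf9, Tnfsf11, Tnfsf18 and Tnfsf4. Tnfsf9 had 2.12, 2.08 and 1.84 (3.91 ± 0.34 log2 above naive, adjusted p = 3e-10). Tnfsf11 had 1.48, 0.94 and 1.24 (3.11 ± 0.38, adjusted p = 1.13e-07). Tnfsf18 had 1.57, 1.42 and 1.02 (2.41 ± 0.32, adjusted p = 2.7e-07), its highest group. Tnfsf4 had 1.86, 2.54 and 2.39 (2.28 ± 0.45, adjusted p = 7.24e-05). Among the receptors, Tnfrsf1b was at 4.83, 5.16 and 5.08, below naive by 3.01 (log2, SE 0.12, adjusted p = 1.39e-15), Tnfrsf10b at 2.24, 2.35 and 2.12, below naive by 2.65 (SE 0.16, adjusted p = 4.8e-13), and Tnfrsf12a at 1.07, 1.32 and 1.34, below naive by 1.41 (SE 0.2, adjusted p = 8.19e-07). TRAIL (Tnfsf10) had 0.98, 0.71 and 0.56, below naive by 1.05 (log2, SE 0.27, adjusted p = 0.000995). As the Y-linked genes separate in vivo activated from naive libraries as well, the part of that split in these differences cannot be told apart from activation. CD30 (Tnfrsf8) was 1.61 ± 0.5 above naive (log2, adjusted p = 0.00564), but the libraries overlapped and the call did not hold without naive replicate 2 (0.9, adjusted p = 0.076).

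Directly compared with 24 h in vitro, in vivo activated cells had 5 members higher and 7 lower (33.6% and 36.3% of all genes tested). The 3 largest differences were in Tnfrsf9, Tnfsf14 and Tnfrsf4, each of which was lower in vivo. Tnfrsf9 had -2.35, -1.92 and -2.82 after in vivo activation, lower than at 24 h by 4.88 (log2, SE 0.34, adjusted p = 1.33e-11), and its in vivo libraries overlapped the naive ones. Tnfrsf4 had 0.36, -0.11 and -0.4, lower than at 24 h by 3.5 (log2, SE 0.23, adjusted p = 6.94e-12). OX40 transcripts were thus below naive cells in vivo, by 0.95 (log2, SE 0.23, adjusted p = 0.000776), and above them at 24 h in vitro, by 2.55 ± 0.23 (adjusted p = 5.4e-10). Of the ligands, Tnfsf14 was at 1.23, 0.75 and 0.91, lower by 4.51 (log2, SE 0.38, adjusted p = 3.18e-10), and Tnfsf9 was lower by 1.75 (SE 0.34, adjusted p = 8.14e-05). Tnfrsf26 was higher in vivo, at 3.87, 4.2 and 3.99 (1.81 ± 0.14 log2, adjusted p = 1.01e-10), as was Tnfsf18 (1.0 ± 0.32, adjusted p = 0.00727).

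In peak GC cells the CD30 gene Tnfrsf8 was higher than in naive cells, and the GITR, TROY and OX40 ligand genes Tnfrsf18, Tnfrsf19 and Tnfsf4 were lower. Against naive cells, 7 of the 22 members rose and 11 fell (40.5% and 39.3% of all genes tested), 14 of the 18 by at least 2-fold. The median size was 1.54 log2 against 0.68 over all genes, and the signed median was -0.59 against 0.01. Tnfrsf8, which encodes CD30, had -3.99, -5.13 and -2.02 in naive cells against 1.56, 1.21 and 0.57 in peak GC, a rise of 4.83 ± 0.5 (log2, adjusted p = 6.86e-09). Per kilobase of exon, its peak GC mean of -0.68 log2 was the 12th of the 31 members, next to Tnfrsf18 at -1.08. It was -0.22, 0.15 and -0.76 in early and 0.08, 0.73 and 0.73 in late GC, so that all 9 GC libraries lay above the naive ones. It had also risen in vitro, to 0.77, 0.77 and 0.31 at 24 h, but was only -2.06, -1.97 and -2.27 after in vivo activation, where 1 naive library lay above 2 of the 3. Tnfsf9 was 1.45, 1.97 and 1.4 in peak GC, 3.5 ± 0.34 above naive (log2, adjusted p = 2e-09).

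Tnfrsf18 encodes GITR, a costimulatory receptor best known on regulatory T cells. It was 4.23, 3.73 and 3.92 in naive cells, between 3.23 and 4.13 in the in vitro libraries and 3.86, 3.77 and 3.76 after in vivo activation. In GC cells it was 0.18, 0.21 and -0.14 (early), -0.75, -0.38 and -0.3 (peak) and -0.66, -0.46 and -0.2 (late). The GC and other libraries were separated by more than 3 log2, and peak GC was below naive by 4.44 (SE 0.15, adjusted p = 3.81e-18) and below in vivo activated by 4.27 (SE 0.15, adjusted p = 2.33e-17). Tnfrsf19 was also lower in all GC libraries than in all others, by a smaller margin, since the lowest 4 h library was at -0.13 and late GC replicate 1 was at -0.85. It had 1.73, 1.59 and 2.08 in in vivo activated cells against -1.78, -1.29 and -1.99 in early, -4.2, -3.3 and -3.46 in peak and -0.85, -3.02 and -2.32 in late GC. Peak GC was below naive by 5.99 (log2, SE 0.36, adjusted p = 3.02e-13). TRAIL (Tnfsf10) had -2.12, -2.04 and -1.16 in peak GC, below naive by 3.58 (log2, SE 0.27, adjusted p = 1.64e-11), and Tnfrsf1b had 5.36, 5.31 and 5.34, below naive by 2.7 (log2, SE 0.12, adjusted p = 8.17e-15). The 11 T-cell markers summed to 384 to 436 CPM in naive, 321 to 336 in in vivo activated and 255 to 297 in peak GC libraries, and to 203 to 234 in vitro. Cd2 and Lck made up most of these sums, with means of 8.44 and 5.38 log2 in naive and 6.13 and 7.55 in peak GC. Cd3e, Cd3d and Cd3g averaged 0.47, 0.24 and 1.67 in naive, 0.24, -0.07 and 1.74 in peak GC and 1.45, 1.22 and 2.89 in late GC. The part of T-cell RNA in the Tnfrsf18 difference was not tested.

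**Figure D4:**
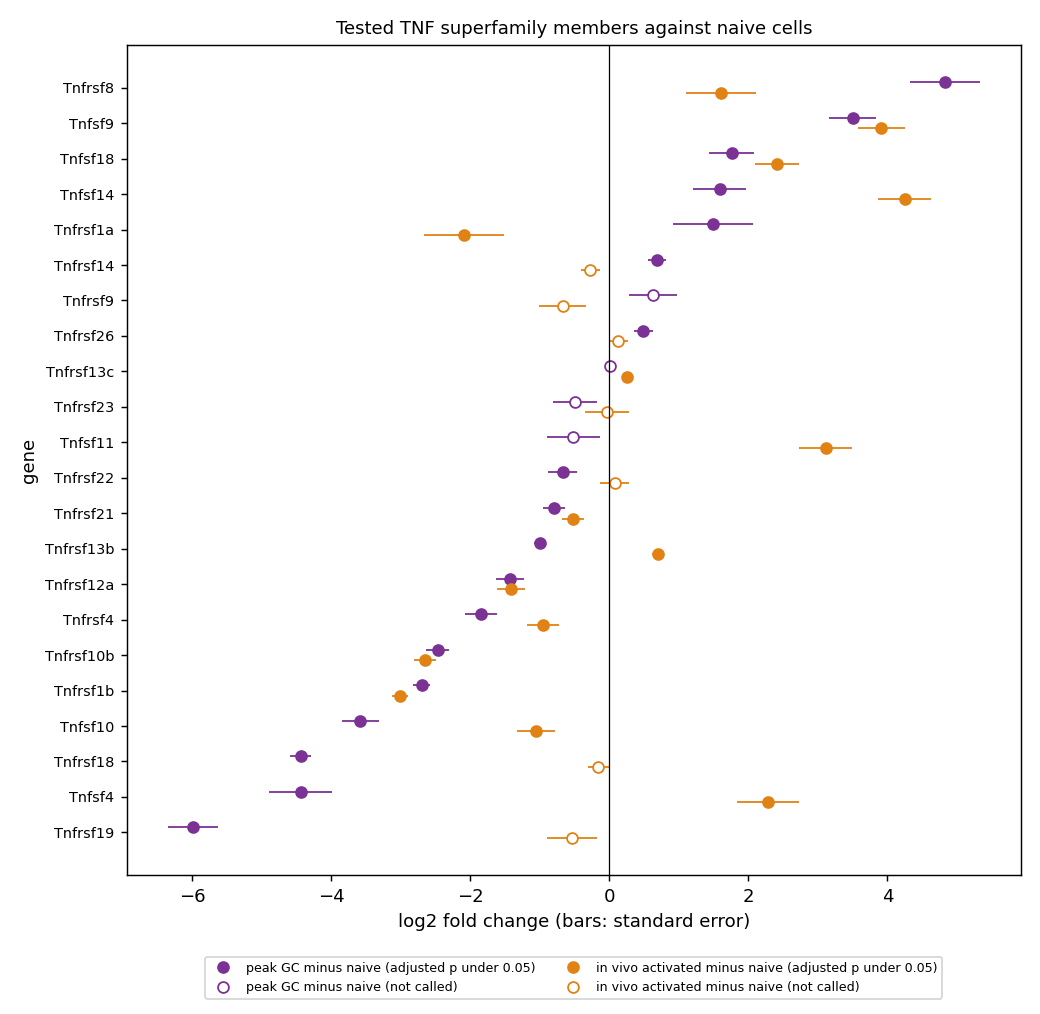
Log2 fold changes (horizontal axis, bars are SE) of the 22 tested members (vertical axis) in peak GC and in in vivo activated cells against naive cells; filled points have an adjusted p under 0.05 and the naive libraries are shared. Tnfsf4 lies at -4.44 in peak GC and at 2.28 after in vivo activation, Tnfrsf18 at -4.44 and -0.16, and Tnfrsf8 at 4.83 and 1.61.

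Set directly against in vivo activated cells, a comparison in which the Y-linked genes do not differ, peak GC cells had 6 members higher and 10 lower (34.1% and 35% of all genes tested), with a median size of 0.93 log2 against 0.43 over all genes. Tnfsf4 (OX40 ligand) was lower by 6.72 (log2, SE 0.45, adjusted p = 5.74e-12): its peak GC libraries had -3.68, -5.92 and -3.77, of which -5.92 is under the floor of -5 log2. RANKL (Tnfsf11) was lower by 3.63 (log2, SE 0.38, adjusted p = 1.62e-08), at -2.85, -2.02 and -2.33 in peak GC, and had -1.73, -1.59 and -2.91 in early and -2.15, -1.94 and -1.86 in late GC. Tnfrsf19 was lower by 5.46 (log2, SE 0.36, adjusted p = 3.88e-12). CD30 (Tnfrsf8) was higher by 3.21 ± 0.5 (log2, adjusted p = 5.63e-06). These 5 genes, Tnfrsf18 included, had no overlap between the peak GC and in vivo activated libraries, which the rule for named genes required.

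Tnfrsf1a had the largest rise in peak GC against in vivo activated cells. It encodes TNF receptor 1, which carries a death domain and is broadly expressed outside lymphocytes. It had 1, 0.96 and 2.22 in peak GC, -0.01, -0.3 and 0.01 in naive and -3.47, -0.68 and -2.42 in in vivo activated libraries. In vitro it was -2.04, -1.17 and -1.06 at 4 h, -1.58, -2.99 and -1.86 at 12 h and -2.96, -2.34 and -3.88 at 24 h. Peak GC was above in vivo activated cells by 3.58 ± 0.58 (log2, adjusted p = 1.12e-05) and above naive cells by 1.49 ± 0.58 (adjusted p = 0.0231). The naive call did not hold without peak GC replicate 3 (1.08, adjusted p = 0.122) or without naive replicate 2 (1.39, adjusted p = 0.0628). The macrophage and monocyte marker sum was higher in peak GC (121 to 278 CPM) than in in vivo activated (33.6 to 43) and naive cells (45.5 to 52.7). Tnfrsf1a averaged -2.19 log2 in in vivo activated cells and -1.42 at 4 h in vitro, where the marker sum was 12.3 to 15.6 CPM. The Tnfrsf1a libraries of these 2 groups overlapped. The part of macrophage and monocyte RNA in the Tnfrsf1a differences was not tested.

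The GC stages differed less. From early to peak GC, 1 member rose and 3 fell (5.77% and 7.42% of all genes tested). Tnfsf9 rose from 0.5, -0.04 and 0.33 to 1.45, 1.97 and 1.4 (1.34 ± 0.34 log2, adjusted p = 0.0092), a call that did not hold without early GC replicate 2 (adjusted p = 0.0524) or without peak GC replicate 2 (adjusted p = 0.0507). Tnfsf4, Tnfrsf19 and Tnfrsf18 fell, Tnfsf4 from -1.44, -1.83 and -1.83 by 2.76 (log2, SE 0.45, adjusted p = 0.000166). On a log2(CPM + 1) scale, which compresses low values, that difference was -0.31 and not called (adjusted p = 0.328). The Tnfrsf18 call, a fall by 0.56 (SE 0.15, adjusted p = 0.0126), did not hold without early GC replicate 2 (adjusted p = 0.0631) or without peak GC replicate 1 (adjusted p = 0.0724). From peak to late GC, 6 rose and 7 fell (12% and 20.6% of all genes tested), with a median size of 0.66 log2 against 0.18 over all genes. From early to late GC, 5 rose and 8 fell (13% and 22.1%), with a median size of 0.54 against 0.19. Without late GC replicate 1, the library with the most macrophage and neutrophil marker RNA, 4 rose and 6 fell from peak to late, and 4 rose and 7 fell from early to late. With all libraries, fits of only the 2 groups compared called 5 members from peak to late (2 higher, 3 lower) and 7 from early to late (4 higher, 3 lower).

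The 4-1BB ligand gene Tnfsf9 was 2.44, 2.49 and 2.03 in late GC, 2.06 ± 0.34 above early GC (log2, adjusted p = 7.14e-05). The libraries of the 3 stages did not overlap, but the step from peak to late GC was not called (0.71 ± 0.34, adjusted p = 0.11). Its receptor Tnfrsf9 showed no such order, with all 9 GC libraries between -1.55 and -0.02. Tnfsf14, Tnfsf10, Tnfsf18 and Tnfrsf4 averaged under 1 log2 in every GC stage, so for these stages they are given outside the rule for named genes. LIGHT (Tnfsf14) had -1.63, -2.9 and -1.71 in early, -1.9, -1.59 and -1.62 in peak and -0.25, -1.02 and -0.38 in late GC, 1.53 ± 0.38 above early (log2, adjusted p = 0.00324). TRAIL (Tnfsf10) was -1.56, -1.44 and -1.74 in early and -0.71, -0.38 and 0.27 in late GC, 1.31 ± 0.27 above early (log2, adjusted p = 0.00063). Summed NK markers were 28.8, 24.5 and 33 CPM in early and 39.1, 57.5 and 123 in late GC, replicates 1 to 3, summed erythroid markers (4 of 5 measured) were 139 to 370 and 330 to 510 CPM, and the part of either in the late GC differences was not tested. The GITR ligand Tnfsf18 went the other way, from 0.42, 0.27 and 0.24 in early and 0.52, 0.45 and 1.1 in peak to -1.51, -0.45 and -0.93 in late GC, a fall by 1.27 from early to late (log2, SE 0.32, adjusted p = 0.00339). The TRAIL decoy receptor gene Tnfrsf23, outside the rule for named genes because of its low level and chosen after its values were seen, fell from -0.55, -0.58 and -0.1 in early and -0.73, -0.66 and -0.54 in peak to -1.9, -2.59 and -3.39 in late GC. That fall from early to late was 2.21 on the log2 scale (SE 0.32, adjusted p = 1.65e-05), and Tnfrsf23 was called in none of the 9 comparisons without late GC cells. OX40 (Tnfrsf4) was also lowest in late GC, at -2.11, -1.71 and -1.32 against -0.85, -0.87 and -0.79 in early GC (lower by 0.88 log2, SE 0.23, adjusted p = 0.00581; 0.108 in a fit of those 2 groups alone).

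Tnfrsf1a and Tnfrsf21 were higher late. Tnfrsf1a had 2.51, 1.54 and 1.83 in early and 4.57, 3.01 and 3.19 in late GC. Against peak GC it rose by 2.2 ± 0.58 (log2, adjusted p = 0.00653), and by 1.71 without late GC replicate 1 (adjusted p = 0.0449). Against early GC it rose by 1.63 ± 0.58 (adjusted p = 0.0333). That call did not hold without late GC replicate 1 (1.14, adjusted p = 0.169), without early GC replicate 2 (1.42, adjusted p = 0.111) or without early GC replicate 3 (1.56, adjusted p = 0.0791). Tnfrsf21, the death domain receptor DR6, had 2.01, 2.26 and 2.11 in peak and 3.7, 2.94 and 2.85 in late GC, 1.03 ± 0.16 higher (log2, adjusted p = 5.16e-05) and 0.77 higher without late GC replicate 1 (adjusted p = 0.000159). Both genes were highest in late GC replicate 1, the library with 2140 CPM of macrophage and monocyte markers. Of those 10 markers, 7 had a higher mean in late than in early GC, among them Lyz2 (9.54 against 7.25 log2) and Csf1r (5.52 against 4.11), and the 3 complement genes C1qa, C1qb and C1qc had a lower one. None of the 10 was under -5 log2 in all 3 libraries of any group, and the part of this RNA in the late GC differences was not tested.

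**Figure D5:**
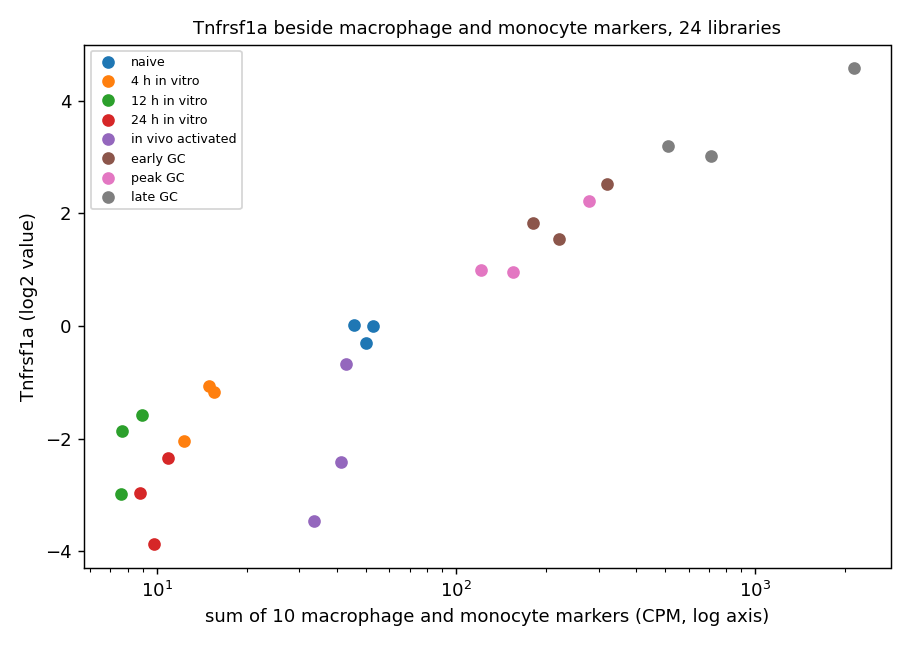
Deposited log2 value of Tnfrsf1a (vertical axis) against the summed CPM of 10 macrophage and monocyte markers (horizontal log axis) in the 24 libraries, coloured by group. The late GC libraries lie at the upper right, with replicate 1 at 4.57 log2 and 2140 CPM, and the in vitro libraries at the lower left; the in vivo activated libraries lie below the naive ones at a like marker sum.

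The 9 members under the level for testing were low throughout. Beside Tnfrsf17, Tnfsf13b and Tnfsf13 they were the TWEAK gene Tnfsf12, the CD30 ligand Tnfsf8, Tnfsf15 (TL1A) and its receptor Tnfrsf25 (DR3), Tnfrsf11a (RANK) and the RANKL decoy Tnfrsf11b (osteoprotegerin). The member just outside the limit was Tnfrsf17, which reached -1.12 log2 in 3 libraries, and the one just inside was Tnfrsf23, which reached 0.05 in 3 libraries. Tnfsf15 was above -5 log2 in 6 of the 24 libraries, the fewest of all members. Tnfsf8, whose receptor gene Tnfrsf8 was higher in peak GC than in naive cells, had peak GC libraries at -4.94, -3.34 and -2.93. Tnfrsf11a had -5.85, -1.88 and -4.98 in naive and -0.21, -1.69 and -0.78 in late GC, and Tnfrsf25 had -1.42, -0.81 and 0.3 in late GC. Because Tnfsf12 was under -5 log2 on average at 12 h and 24 h in vitro, no fold is given against those groups.

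Family genes under other symbols and the signalling proteins below the receptors were examined as 2 further lists. Of 15 family genes, 11 were tested: 4 rose and 5 fell in peak GC against naive cells (40.5% and 39.3% of all genes tested), 5 and 4 after in vivo activation (39.2% and 40.1%) and 6 and 3 at 24 h in vitro (42.2% and 42.5%). In peak GC against in vivo activated cells 5 rose and 6 fell (34.1% and 35%), and from early to late GC 5 and 1 (13% and 22.1%). Fas, the death receptor that also marks GC B cells, was 2.68, 2.7 and 2.49 in naive and 6.21, 6.03 and 5.78 in peak GC, 3.38 ± 0.12 higher (log2, adjusted p = 6.72e-18). Ltb, which encodes lymphotoxin beta, was 9.2, 8.93 and 9 in naive cells but 4.2, 4.65 and 4.69 at 24 h in vitro, where it fell by 4.53 (log2, SE 0.13, adjusted p = 2.62e-18), and 6.32, 6.5 and 6.49 after in vivo activation. Peak GC libraries were back at 8.95, 8.89 and 8.42, 2.32 ± 0.13 above in vivo activated cells (log2, adjusted p = 1.16e-12). Lta, its partner in the lymphotoxin heterotrimer, was lower at 24 h by 4.2 (log2, SE 0.16, adjusted p = 2.1e-17). CD40, the receptor for T-cell help, was below naive by 0.49 in peak GC (log2, SE 0.08, adjusted p = 1.04e-05) and by 1.13 after in vivo activation (SE 0.08, adjusted p = 1.29e-11). Ltbr, a neighbour of Tnfrsf1a on chromosome 6, rose from 0.76, 0.54 and 0.21 in early to 3.08, 2.04 and 2.06 in late GC (1.89 ± 0.39 log2, adjusted p = 0.000797; 1.54 without late GC replicate 1, adjusted p = 0.0084), with the same late GC library highest as for Tnfrsf1a.

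All 29 TRAF, death domain and NF-kB proteins of the other list were tested. In peak GC against naive cells 2 rose and 20 fell (40.5% and 39.3% of all genes tested), with a median of -0.68 log2 against 0.01 over all genes. After in vivo activation 3 rose and 23 fell (39.2% and 40.1%; median -0.63 against -0.02), and at 24 h in vitro 5 rose and 22 fell (42.2% and 42.5%; median -0.72 against -0.01). Birc3, the ubiquitin ligase cIAP2 that sits on TRAF complexes, fell in all 3, by 2.02 in peak GC (log2, SE 0.06, adjusted p = 1.91e-18), by 2.98 after in vivo activation (SE 0.06, adjusted p = 2.07e-21) and by 2.69 at 24 h (SE 0.06, adjusted p = 9e-21). Nfkb2, the precursor of the noncanonical NF-kB pathway through which the BAFF receptor signals, fell by 1.71 in peak GC (log2, SE 0.06, adjusted p = 3.66e-17) and by 2.42 after in vivo activation (SE 0.06, adjusted p = 8.74e-20). Against that trend, Nfkb1 rose by 1.0 ± 0.05 at 24 h in vitro (log2, adjusted p = 3.03e-15) and the inhibitor gene Nfkbie by 1.91 ± 0.07 (adjusted p = 4.36e-17). In peak GC against in vivo activated cells the list was less one-sided, with 15 higher and 9 lower (34.1% and 35% of all genes tested), Birc3 among the higher (0.96 ± 0.06 log2, adjusted p = 5.8e-12) and Nfkb1 among the lower (by 0.94, SE 0.05, adjusted p = 3.91e-14). From early to late GC 8 rose and 8 fell (13% and 22.1%).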

How the data were processed

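RNA of 24 sorted spleen B-cell libraries, 3 in each of 8 groups named by the labels, was analysed from the deposited table of each library. The submitters' processing notes name, with no roles, Subread 1.6.2, STAR 2.6.0c, limma, FastQC 0.11.5, featureCounts and cutadapt 1.8.3 and the build mm10; the counting options are not given in the sources used here. Libraries were TruSeq Stranded mRNA with paired reads of 75 bases, per the labels' protocols. The deposited log2 values behave like log2 CPM, since 2 to the power of the values summed to 990678 to 1008194 per library. The depth is unknown, so no detection limit was computed. The value at rank 1000 differed by at most 0.03 log2 between libraries, and the 3 replicate numbers had the same mean for each gene to within 0.0009 log2, so a difference between replicate numbers had already been taken out. Values under -5 log2 are called the floor; 5895 genes were there in all libraries.

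Genes at 0 log2 or more in at least 3 libraries (11885) were fitted with limma 3.58.1 in R 4.3.3 as 1 mean per group over all libraries (16 residual degrees of freedom), with trended variances and robust moderation. Since the difference between replicate numbers had been taken out beforehand, this fit counts more residual degrees of freedom than the values hold. Its SEs and p-values are therefore somewhat too small. The fit with a replicate block, among the alternatives, allows for this. Tests are two-sided, with Benjamini-Hochberg adjustment over all genes tested, and a gene was called at an adjusted p under 0.05. The fit was tested on simulated data for peak GC against naive cells (11885 genes, 50 changed at each size): it recovered 70%, 82%, 96% and 92% of genes changed by 0.5, 1, 2 and 3 log2, and 6.08% of its calls were false. Tables and figures used matplotlib 3.10.9, pandas 2.3.3 and numpy 2.4.6 in Python 3.11.15. Exon lengths and positions are from GENCODE vM21 (mm10), in which all 31 members were found, and promoters from RefSeq (GRCm38.p6).

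Members and lists were chosen with earlier results of these data known. Named in full are the BAFF and APRIL genes and, per comparison, up to 4 called members in each direction with the largest changes among those that changed 2-fold or more, whose higher group averaged 1 log2 or more and whose libraries did not overlap; of the other lists, up to 2 in each direction by the smallest p. Folds of some members outside the rule for members are also given. No fold is given against a group whose mean is under -5 log2. Alternatives were other level requirements, log2(CPM + 1), median-of-ratios scaling, fits of only the 2 groups compared, plain moderation, a replicate block and leaving out each library.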

Additional observations from a re-analysis of the deposited data

Results flagged for a closer look

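Tnfrsf4, which encodes OX40, moved in opposite directions in the 2 activated states. It was lower than in naive cells after in vivo activation (-0.95 log2) and higher at 24 h in vitro (2.55 log2), and the test of the difference itself gave -3.5 log2 (limma, adjusted p = 6.94e-12), with all 3 in vivo libraries below all naive libraries and all 3 libraries at 24 h above them. Summed Y-linked transcripts were 119 to 130 CPM in naive and 80.3 to 90.6 CPM in 24 h libraries, but at most 0.0966 CPM after in vivo activation. That split cannot be told apart from the group in the 2 comparisons of in vivo activated cells. It does not bear on the comparison of 24 h with naive cells.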

How the results depend on the processing

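Members called were counted in the 11 comparisons and in the F test over the 8 groups, which called all 22. Of these 12 counts, 9, the F test included, stayed within 1.5 times the reported count under all alternatives run. From early to peak GC it was 4, but 2 with log2(CPM + 1) and 2 to 4 when each library was left out, the lowest without early GC replicate 2. In fits of only the 2 groups compared, 5 members were called from peak to late GC in place of 13 and 7 from early to late GC in place of 13, and 10 in place of 16 of the signalling list were called from early to late GC; such fits have fewer libraries to estimate the spread. With 2 log2 or more required, 3 of the family genes under other symbols were called from early to late GC in place of 6, with 8 tested. Leaving out each library gave 10 to 13 members from peak to late GC and 11 to 13 from early to late GC. It turned the sign of differences that were not called: Tnfrsf13c ranged from -0.01 to 0.03 log2 for peak GC against naive and from -0.01 to 0.03 for in vivo activated against 24 h, and Tnfrsf13b from -0.09 to 0.05 for peak against early GC. Median-of-ratios scaling moved single libraries by -0.1 to 0.082 log2 and ended 16 of the single-gene calls, log2(CPM + 1) 26 and fits of 2 groups 51. Whether the replicate numbers pair the libraries could not be checked, because the deposited values have equal means over the numbers for each gene, which fixes the correlation of same-numbered deviations near its median of -0.13. A fit with the replicate number as a block left all counts within 1.5 times the reported ones (18 members for peak GC against naive), and 14 single-gene calls were lost, among members only that of Tnfrsf1a at 4 h against naive (-1.33 log2, adjusted p = 0.056). The depth is unknown, so what low values such as those of BAFF and APRIL can show is limited by an unknown count.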
